A study of Mus musculus with 4 samples.

Results

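The genes of cholesterol and fatty acid synthesis were described in the colon mucosa of mice with and without Vhl in the intestinal epithelium. The set was given as a list of 33 genes of the 2 pathways and their regulators, and all 33 were found among 18194 genes on the array. Each gene was read from its brightest probe set on average, out of those that the platform annotation assigns to that gene alone. The members were grouped by role into 15 enzymes of sterol synthesis, 5 genes of regulation and sterol transport, and 13 genes of fatty acid synthesis, desaturation and elongation.

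RNA came from scraped colon mucosa of mice 5 weeks of age, all of the 129S6/SvEv strain and fed standard chow. Genotypes were VhlΔIE/Apcmin/+ (5 mice in the design text), VhlF/F/Apcmin/+ (3 mice), VhlΔIE (3 mice) and VhlF/F (4 mice). VhlF/F mice carry floxed Vhl alleles that are not deleted, and VhlΔIE mice lack Vhl in the intestine only. Apcmin/+ mice carry the Min mutation of Apc and serve as a model of intestinal tumours. The Cre driver is not given in the labels, and neither is whether the RNA of several mice was pooled. Each genotype was on 1 array, so every difference below is 1 array minus another, has no replicate check and carries no p-value. Values are RMA log2 values as deposited, and a difference of 1 on this scale is 2-fold.

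The cell makes cholesterol from acetyl-CoA through mevalonate, squalene and lanosterol, and makes fatty acids from the same acetyl-CoA through malonyl-CoA. Both pathways are driven by the sterol regulatory element binding proteins (SREBPs), which the escort protein SCAP carries out of the endoplasmic reticulum when sterols are low and which INSIG proteins hold back when sterols are high. The colon epithelium renews itself continuously and needs membrane lipid for this. VHL marks hypoxia-inducible factors (HIFs) for degradation. The comparisons set transcripts of colon mucosa with and without intestinal Vhl side by side, with normal and with mutant Apc.

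Promoter sequences are shown for 4 members whose values differ most in kind, as RefSeq gives them for GRCm38.p6, from 250 bases before to 50 after the annotated start, 5′ to 3′ on the gene's strand. Fads2 and Acly were lower on both arrays of Vhl-deleted mucosa, Me1 was higher on both, and Hmgcs1 was nearly level. Capitals mark matches on either strand to TCACNCCAC (a core of the sterol regulatory element), CACGTG (E-box), CCAAT (bound by NF-Y) or ACGTG (the core of the hypoxia response element, which overlaps the E-box).
Fads2, chr19:10101454-10101753, minus strand: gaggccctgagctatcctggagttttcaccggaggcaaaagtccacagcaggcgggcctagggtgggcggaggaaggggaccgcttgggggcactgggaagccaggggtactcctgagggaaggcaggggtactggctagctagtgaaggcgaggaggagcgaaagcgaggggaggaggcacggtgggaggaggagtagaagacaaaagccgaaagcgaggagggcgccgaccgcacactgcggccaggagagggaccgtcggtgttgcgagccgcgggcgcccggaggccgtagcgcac
Acly, chr11:100527951-100528250, minus strand: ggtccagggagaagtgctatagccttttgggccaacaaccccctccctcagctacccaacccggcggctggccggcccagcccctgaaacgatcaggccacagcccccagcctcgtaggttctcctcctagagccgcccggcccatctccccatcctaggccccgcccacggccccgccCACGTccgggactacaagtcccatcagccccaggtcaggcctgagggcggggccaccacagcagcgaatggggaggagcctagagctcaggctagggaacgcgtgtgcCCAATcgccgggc
Me1, chr9:86695865-86696164, minus strand: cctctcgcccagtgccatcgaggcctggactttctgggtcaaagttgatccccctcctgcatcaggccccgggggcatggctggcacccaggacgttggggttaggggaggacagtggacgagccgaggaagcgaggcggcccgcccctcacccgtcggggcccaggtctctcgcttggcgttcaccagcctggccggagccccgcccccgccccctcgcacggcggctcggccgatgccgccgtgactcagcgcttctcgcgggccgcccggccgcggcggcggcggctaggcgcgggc
Hmgcs1, chr13:119690101-119690400, plus strand: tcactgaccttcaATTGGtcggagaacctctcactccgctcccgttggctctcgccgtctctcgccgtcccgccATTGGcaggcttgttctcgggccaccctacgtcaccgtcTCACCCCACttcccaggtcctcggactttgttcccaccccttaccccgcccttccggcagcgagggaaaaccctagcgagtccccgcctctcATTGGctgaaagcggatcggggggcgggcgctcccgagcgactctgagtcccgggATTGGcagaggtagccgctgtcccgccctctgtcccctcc

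These windows differ in what they hold. Hmgcs1 has 1 match to TCACNCCAC, which begins at base -137 counted from the annotated start, and 4 matches to CCAAT. Acly has ACGTG, read on the opposite strand, from base -71 and CCAAT from base 38. The Fads2 window and this Me1 window hold none of the 4 motifs. The table gives Me1 a second start, at chr9:86687228-86687527, whose window holds 1 CCAAT and 1 ACGTG.

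Windows were found for 26 of the 33 members, 34 windows in all. CCAAT was in 67.6% of the members' windows and in 37.4% of all 32851 windows. CACGTG was in 20.6% of the members' windows, those of Dhcr7, Elovl5, Hsd17b7, Insig1, Sc5d and Scap, and in 7.15% of all windows. ACGTG was in 32.4% and 19.6%. Every CACGTG holds an ACGTG, so the 7 member windows with CACGTG are counted again among the 11 with ACGTG. The same holds for 2349 of the 6447 windows with ACGTG among all windows. The windows of Scap overlap and share the same CACGTG. TCACNCCAC was in 2.94% of the members' windows, which is 1 window, that of Hmgcs1, and in 1.24% of all windows. These are matches of letters and do not show binding.

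All 33 members reached a log2 value of 6, the floor used for a measured gene, and 32 of them did so on every array. The exception was Acacb. Markers of colon epithelium were high, with Krt8 between 13.97 and 14.07, Epcam between 13.87 and 13.91 and Muc2 between 13.90 and 14.19 on the 4 arrays. All 10 epithelial markers read at least 9.82 on every array. Slc26a3, the chloride exchanger of mature colonocytes, differed between deleted and floxed arrays by -0.76 with and -0.69 without Apcmin/+. Car1 differed by -0.30 and -0.33, Cdx2 by 0.67 and -0.62, Krt20 by 0.39 and 0.09, and Vil1 by 0.24 and 0.14. Of the 10 markers, 6 were higher and 4 lower with Apcmin/+, and 5 were higher and 5 lower without it. Their medians were 0.11 and 0.01. Vhl read 6.56 in VhlΔIE/Apcmin/+ against 8.17 in VhlF/F/Apcmin/+ mucosa, and 7.03 in VhlΔIE against 8.40 in VhlF/F mucosa. Of 45101 probe sets, 22129 to 22222 lay under the floor per array, and 11871 genes reached it on at least 1 array.

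Other tissues and sample traits separated the arrays. The 10 hepatocyte markers had a mean of 8.62 in VhlF/F mucosa and 5.82 to 5.98 on the other 3 arrays. Of 10 adipocyte markers 8 were found and 6 reached the floor, with means of 7.14 in VhlΔIE/Apcmin/+, 6.63 in VhlF/F/Apcmin/+, 7.39 in VhlΔIE and 7.32 in VhlF/F mucosa. The female-specific RNA Xist read 6.25 in VhlΔIE/Apcmin/+ against 11.83 in VhlF/F/Apcmin/+ mucosa, and 5.58 in VhlΔIE against 11.37 in VhlF/F mucosa. The Y-linked gene Eif2s3y read 8.80 against 7.27 and 8.78 against 8.58 in the same pairs, so the VhlF/F array held high Xist together with Y-linked RNA. Xist followed Vhl status in both pairs and Y-linked RNA did not, and the sex makeup of the samples cannot be fully told apart from genotype. In scraped mucosa, fewer cells of a type and less RNA per cell cannot be told apart either.

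**Figure D1:**
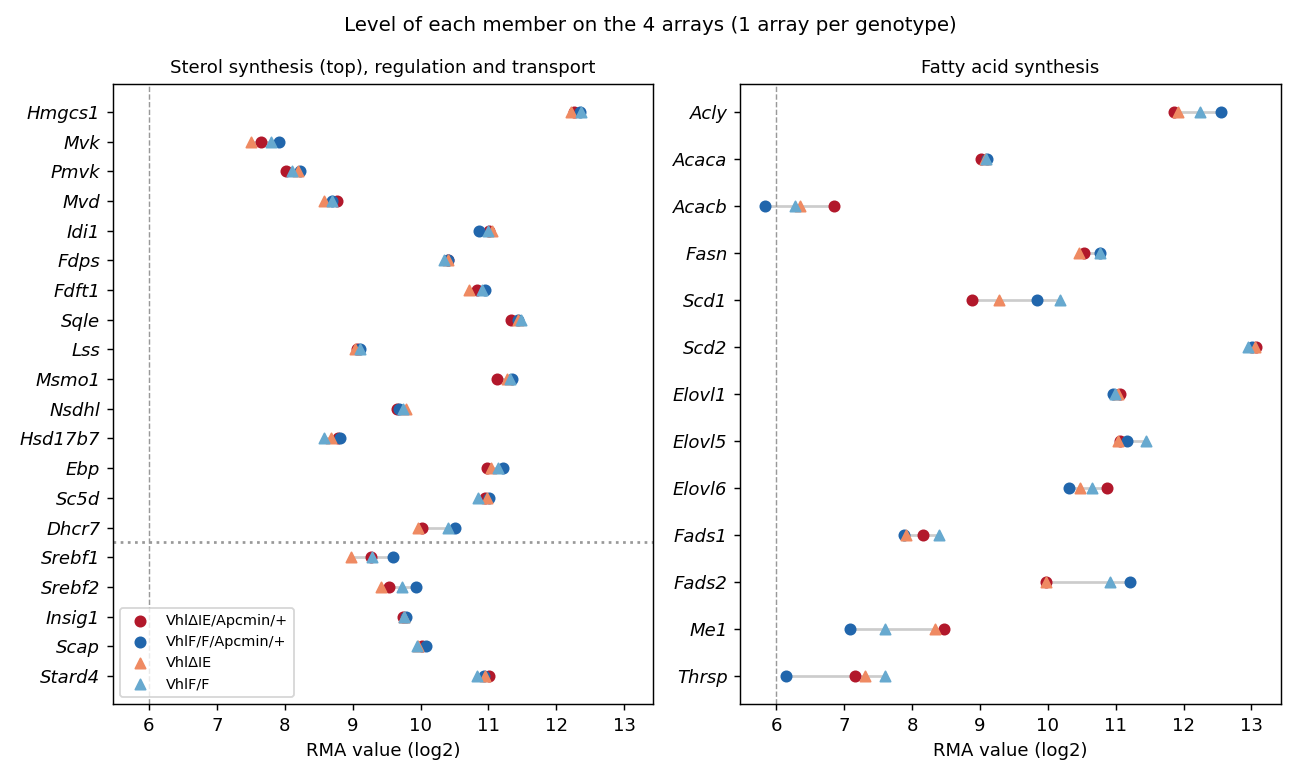
RMA values (log2, horizontal axis) of the 33 members, 1 point per array. Circles are Apcmin/+ arrays and triangles arrays without it, red shades are VhlΔIE and blue shades VhlF/F, and the dashed line is the floor of 6. The points of most sterol enzymes lie within 0.5 of each other, while Scd1, Fads2, Me1, Thrsp and Acacb span 1.01 to 1.47.

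The enzymes of sterol synthesis were nearly level across the 4 genotypes. None of the 15 was 1.5-fold apart in any of the 4 comparisons. The median over the 15 was -0.09 for VhlΔIE/Apcmin/+ minus VhlF/F/Apcmin/+ and -0.05 for VhlΔIE minus VhlF/F, where all 11871 genes had medians of -0.02 in each. The highest and lowest array of a sterol enzyme were a median of 0.20 apart, against 0.32 for all genes, and 14 of the 15 (93.3%) spanned less than 0.5, where 73.1% of all genes did.

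Early steps of the pathway showed this. Hmgcs1, which condenses acetyl-CoA units on the way to mevalonate, read 12.26 in VhlΔIE/Apcmin/+ against 12.35 in VhlF/F/Apcmin/+ mucosa, and 12.21 in VhlΔIE against 12.37 in VhlF/F mucosa. It was a little lower on both Vhl-deleted arrays, and its 5 probe sets did not share a direction in either Vhl comparison. Mvk, the kinase that phosphorylates mevalonate, differed by -0.27 with and -0.29 without Apcmin/+. Pmvk, the next kinase, differed by -0.21 and 0.08, and Mvd, which decarboxylates the product to isopentenyl diphosphate, by 0.07 and -0.11. Idi1, the isomerase of that product, differed by 0.15 and 0.06, and Fdps, which joins the units to farnesyl diphosphate, by -0.00 and 0.07.

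The squalene and lanosterol steps were as level. Fdft1, squalene synthase, differed by -0.12 with and -0.20 without Apcmin/+. Sqle, the oxygen-using squalene epoxidase, read 11.33 in VhlΔIE/Apcmin/+ against 11.43 in VhlF/F/Apcmin/+ mucosa, and 11.43 in VhlΔIE against 11.48 in VhlF/F mucosa. Deleted and floxed arrays overlapped for Sqle. Lss, which closes the rings to lanosterol, differed by -0.04 and -0.08.

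Among the late steps, Dhcr7 stood out. Dhcr7, the reductase that makes cholesterol from its last precursor, read 10.01 in VhlΔIE/Apcmin/+ against 10.50 in VhlF/F/Apcmin/+ mucosa, and 9.97 in VhlΔIE against 10.41 in VhlF/F mucosa. Both deleted arrays lay below both floxed arrays, with differences of -0.49 with and -0.44 without Apcmin/+. These were the largest Vhl differences among the 15 enzymes in both backgrounds, by the probe set used for each, and Dhcr7 was read from 1 probe set. Msmo1, the oxygen-using enzyme that removes methyl groups from the sterol ring, differed by -0.21 and -0.04. Its other probe set, near background, differed by -0.498 and 0.155. Nsdhl and Hsd17b7, which act with Msmo1, differed by -0.04 and 0.04 and by -0.03 and 0.11. The other Hsd17b7 probe sets above the floor gave 0.03 and -0.11 with Apcmin/+, and 0.32 and 0.30 without it. Ebp, a sterol isomerase, differed by -0.24 and -0.09, and Sc5d, a sterol desaturase, by -0.06 and 0.13.

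The transcripts of both SREBP genes were lower on the Vhl-deleted arrays, while those of the proteins that hold or escort them were level. Srebf1, which encodes the form tied mainly to fatty acid synthesis, read 9.27 in VhlΔIE/Apcmin/+ against 9.59 in VhlF/F/Apcmin/+ mucosa, and 8.97 in VhlΔIE against 9.29 in VhlF/F mucosa. Srebf2, which encodes the form tied mainly to sterol synthesis, read 9.54 against 9.93 in the Apcmin/+ pair and 9.42 against 9.72 in the pair without it. The differences were -0.32 and -0.32 for Srebf1 and -0.39 and -0.31 for Srebf2, and none reached 1.5-fold. Both probe sets of Srebf2 were lower in both comparisons, at -0.39 to -0.22 across them.

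Insig1, which retains SCAP and SREBP in the endoplasmic reticulum and is itself an SREBP target, read 9.75 in VhlΔIE/Apcmin/+ against 9.79 in VhlF/F/Apcmin/+ mucosa, and 9.76 in VhlΔIE against 9.75 in VhlF/F mucosa. Its 4 values lay within 0.04 of each other, the smallest span of the 33 members. Scap differed by -0.05 and 0.02. Stard4, a carrier of cholesterol between membranes, was on the higher side in both, by 0.08 and 0.13.

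Fatty acid genes held all member differences that reached 2-fold. For VhlΔIE/Apcmin/+ minus VhlF/F/Apcmin/+, 3 of the 33 members (9.09%) were at least 2-fold higher and 1 (3.03%) was at least 2-fold lower, where 2.82% and 1.52% of all genes were. For VhlΔIE minus VhlF/F, none of the 33 was 2-fold higher or lower, where 2.27% and 1.6% of all genes were. At 1.5-fold, 3 members were higher and 3 lower with Apcmin/+, where 7.19% and 5.15% of all genes were. Without it 1 was higher and 2 were lower, where 6.22% and 5.08% were. The 13 fatty acid genes had medians of 0.06 with and -0.31 without Apcmin/+, and their median size of difference was 0.55 and 0.31, against 0.18 for all genes in each.

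**Figure D2:**
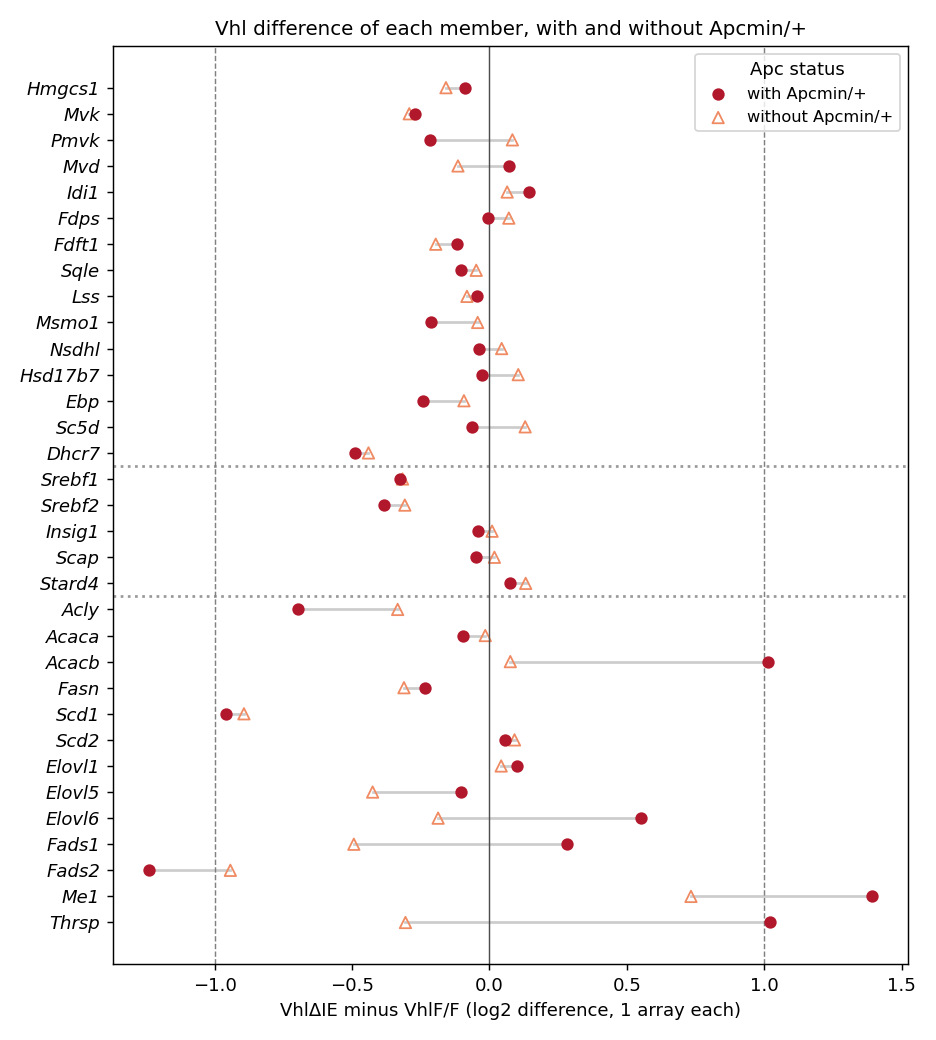
Vhl difference (log2, horizontal axis) of each member with Apcmin/+ (filled circles) and without it (open triangles), with dashed lines at 2-fold and dotted lines between the role groups. Sterol enzymes lie between -0.49 and 0.15, whereas Fads2 and Scd1 lie near or past 2-fold lower and Me1 lies to the right in both backgrounds.

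Desaturases gave the largest values on the lower side. Fads2, which starts the conversion of dietary linoleic and linolenic acid to longer polyunsaturated fatty acids, read 9.98 in VhlΔIE/Apcmin/+ against 11.22 in VhlF/F/Apcmin/+ mucosa, and 9.97 in VhlΔIE against 10.92 in VhlF/F mucosa. Both deleted arrays read almost the same and lay below both floxed arrays. The differences were -1.24 (2.36-fold) and -0.94 (1.92-fold). All 3 of its probe sets were lower in both comparisons, at -1.33 to -1.24 with Apcmin/+ and -0.94 to -0.86 without it.

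Scd1, the desaturase that makes monounsaturated from saturated fatty acids, read 8.88 in VhlΔIE/Apcmin/+ against 9.84 in VhlF/F/Apcmin/+ mucosa, and 9.28 in VhlΔIE against 10.18 in VhlF/F mucosa. The groups did not overlap, and the differences were -0.96 and -0.89, just short of 2-fold. Its other probe set, near background, differed by -0.53 and -0.39. Scd2, the paralogue with the same activity, read 12.96 to 13.07 on all 4 arrays and differed by 0.06 and 0.09. Fads1, the desaturase that acts after Fads2, read 8.17 in VhlΔIE/Apcmin/+ against 7.88 in VhlF/F/Apcmin/+ mucosa, and 7.91 in VhlΔIE against 8.40 in VhlF/F mucosa. It thus differed by 0.28 with and by -0.49 without Apcmin/+, and deleted and floxed arrays overlapped. The other probe set of Fads1, near background, differed by 0.25 with and 0.01 without Apcmin/+, so it did not share the lower side.

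Acly, Fasn and Acaca, which act at the start of fatty acid synthesis, were lower or level on the Vhl-deleted arrays. Acly, which splits citrate to give cytosolic acetyl-CoA for both pathways, read 11.85 in VhlΔIE/Apcmin/+ against 12.55 in VhlF/F/Apcmin/+ mucosa, and 11.91 in VhlΔIE against 12.25 in VhlF/F mucosa. The differences were -0.70 and -0.33, and all 3 of its probe sets above the floor were lower in both comparisons. Fasn, the fatty acid synthase, differed by -0.23 and -0.31 and was read from 1 probe set. Acaca, the cytosolic acetyl-CoA carboxylase, differed by -0.10 and -0.02.

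Acacb, the carboxylase at the mitochondrial surface, read 6.84 in VhlΔIE/Apcmin/+ against 5.83 in VhlF/F/Apcmin/+ mucosa, and 6.35 in VhlΔIE against 6.27 in VhlF/F mucosa. Its difference of 1.01 with Apcmin/+ lay just past 2-fold and came from values near background, and without Apcmin/+ it was 0.08. Its second probe set stayed under the floor on every array.

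Me1, the malic enzyme that yields NADPH for lipid synthesis, was the one member on the higher side by at least 1.5-fold in both backgrounds. It read 8.48 in VhlΔIE/Apcmin/+ against 7.08 in VhlF/F/Apcmin/+ mucosa, and 8.34 in VhlΔIE against 7.61 in VhlF/F mucosa. Both deleted arrays lay above both floxed arrays, with differences of 1.39 (2.63-fold) and 0.73 (1.66-fold). Its second probe set gave 1.79 and 0.99.

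Thrsp, a regulator of lipogenesis known from liver and fat, read 7.16 in VhlΔIE/Apcmin/+ against 6.14 in VhlF/F/Apcmin/+ mucosa, and 7.30 in VhlΔIE against 7.61 in VhlF/F mucosa. It was low on the VhlF/F/Apcmin/+ array alone, so the difference was 1.02 with and -0.31 without Apcmin/+. Its other 2 probe sets, near background, gave 0.47 and 0.35 with Apcmin/+, and with the mean over probe sets Thrsp was under 2-fold and Acacb under the floor. Among the elongases, which lengthen fatty acids, Elovl6 had the widest span. Elovl6, which extends palmitate, read 10.87 in VhlΔIE/Apcmin/+ against 10.32 in VhlF/F/Apcmin/+ mucosa, and 10.47 in VhlΔIE against 10.65 in VhlF/F mucosa. Elovl5, which extends polyunsaturated acids, differed by -0.10 and -0.42, and Elovl1, which makes very long chains, by 0.10 and 0.04.

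Across all roles, the order of deleted and floxed arrays was counted. Both deleted arrays lay below both floxed arrays for 15 of 33 members (45.5%), where 33.4% of all genes did. They lay above for 6 of 33 (18.2%), where 27.7% did. By role, 7 of 15 sterol enzymes, 2 of 5 regulators and 6 of 13 fatty acid genes were on the lower side, and 1, 1 and 4 on the higher side.

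With the Apc mutation, Thrsp was the one member that was at least 2-fold apart. For VhlF/F/Apcmin/+ minus VhlF/F, no member was 2-fold higher and 1 of 33 was 2-fold lower, where 0.118% and 0.901% of all genes were. At 1.5-fold the counts were again 0 and 1, where 1.05% and 2.36% were. Thrsp differed by -1.47 (2.76-fold) there, the largest member difference of the 4 comparisons, while its other probe sets gave -0.69 and 0.00. For VhlΔIE/Apcmin/+ minus VhlΔIE, no member was 2-fold or 1.5-fold apart, where 0.202% of all genes were 2-fold higher and 0.118% lower, and 0.724% and 0.792% were 1.5-fold higher and lower. Differences in that comparison ran between -0.40 for Scd1 and 0.50 for Acacb. The sterol enzymes had medians of 0.04 with floxed and -0.01 with deleted Vhl, and the fatty acid genes -0.28 and 0.04.

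Floxed and deleted backgrounds differed in which members were apart. In VhlF/F/Apcmin/+ minus VhlF/F, Me1 differed by -0.52, Fads1 by -0.52, Acacb by -0.44, Elovl6 by -0.34 and Scd1 by -0.34. Srebf1, Acly, Fads2 and Srebf2 were on the higher side there, by 0.30, 0.31, 0.30 and 0.20. In VhlΔIE/Apcmin/+ minus VhlΔIE, Srebf1 differed by 0.30, Elovl6 by 0.40, Acly by -0.06 and Fads2 by 0.00. The first of these comparisons shares an array with each Vhl comparison, and so does the second.

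**Figure D3:**
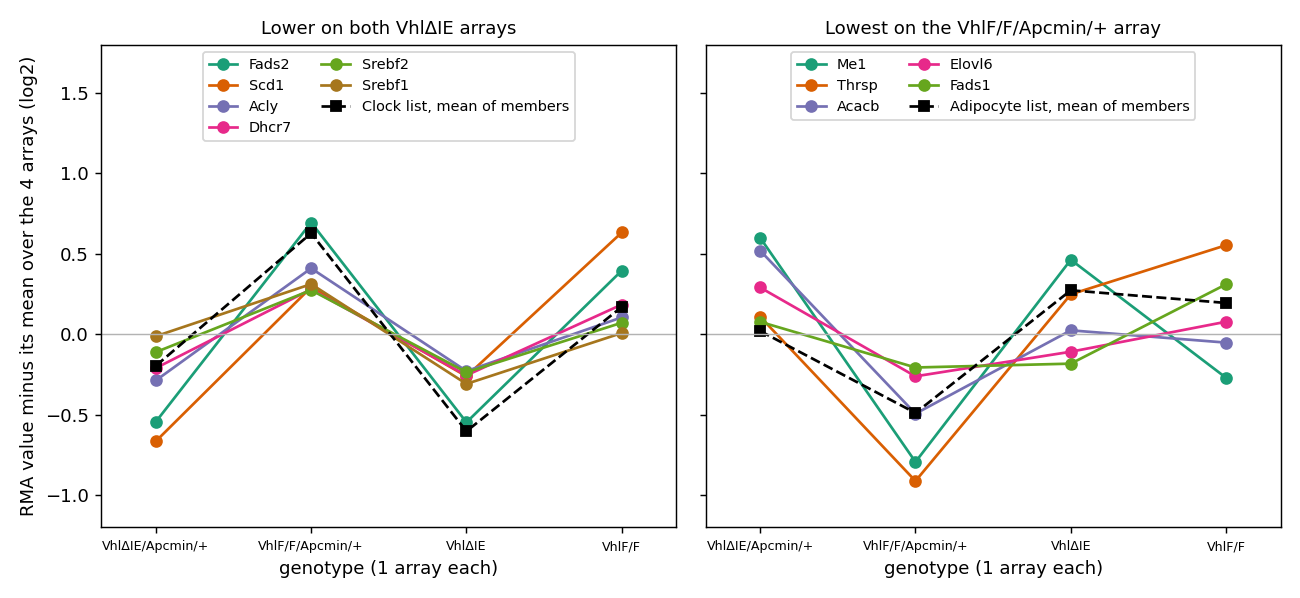
RMA values minus their mean over the 4 arrays (log2, vertical axis) by genotype for 6 members lower on both VhlΔIE arrays (left) and 5 members that were lowest on the VhlF/F/Apcmin/+ array (right), chosen after their values were seen. Dashed lines give the mean of the clock genes (left) and of the adipocyte markers (right), which read 9.64 and 6.63 on the VhlF/F/Apcmin/+ array. Each mean covers genes that go opposite ways, such as Npas2 among the clock genes and Plin4 among the adipocyte markers. Elovl1 and Idi1, also lowest on the VhlF/F/Apcmin/+ array, are not drawn. Since the members were picked by their values, a likeness to a dashed line is no test.

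The VhlF/F/Apcmin/+ array held the lowest value of 6 of the 13 fatty acid genes (46.2%) and of 1 of the 15 sterol enzymes (6.67%), where 24.6% of all genes were lowest there. The means of the adipocyte and of the small intestinal enterocyte markers were lowest there too, but the markers did not all follow. The adipocyte marker Plin4 and the enterocyte marker Rbp2 were highest there, at 7.14 and 9.43. Of the other enterocyte markers, Apoa4 and Cyp3a11 were lowest in VhlΔIE/Apcmin/+ mucosa, at 5.60 and 4.67, and Mttp in VhlF/F mucosa, at 5.83. Adipoq, the fat hormone adiponectin, read 7.17 in VhlΔIE/Apcmin/+ against 6.28 in VhlF/F/Apcmin/+ mucosa, and 7.55 in VhlΔIE against 7.64 in VhlF/F mucosa. Cidec, a lipid droplet protein of fat cells, read 6.76 against 5.13 and 6.67 against 6.10 in the same pairs. Of the 6 adipocyte markers that reached the floor, VhlΔIE/Apcmin/+ mucosa had 5 at a higher and 1 at a lower level than VhlF/F/Apcmin/+ mucosa, with a median of 0.44. VhlΔIE mucosa had 2 at a higher and 4 at a lower level than VhlF/F mucosa, with a median of -0.03. Lep, the fat hormone leptin, stayed under the floor, at 3.82 to 4.19. Of 9 small intestinal enterocyte markers 8 were found and 7 reached the floor, with means of 7.72 in VhlΔIE/Apcmin/+ against 7.16 in VhlF/F/Apcmin/+ mucosa, and 8.33 in VhlΔIE against 8.88 in VhlF/F mucosa. Their medians were 1.49 with 4 higher and 3 lower for the first pair, and -0.52 with 2 higher and 5 lower for the second. Fabp2, a fatty acid carrier of enterocytes, read 11.74 against 9.73 and 11.31 against 12.17 in these pairs. The part of fat tissue and of small intestinal transcripts in the values of Me1, Thrsp, Acacb and Elovl6 was not tested.

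With the other floxed array in its place, Me1 and Fads2 kept their side. Me1 differed by 1.26 for VhlΔIE minus VhlF/F/Apcmin/+ and by 0.87 for VhlΔIE/Apcmin/+ minus VhlF/F. Fads2 differed by -1.24 and -0.94, Scd1 by -0.55 and -1.30, and Acly by -0.64 and -0.39. Thrsp differed by 1.16 and -0.44 and Acacb by 0.52 and 0.57, so the Thrsp difference turned its sign with the floxed array used. Srebf1 differed by -0.62 and -0.02 and Srebf2 by -0.51 and -0.18, so the like differences of the matched pairs rest on the floxed array used.

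Of the 10 hepatocyte markers, 8 were at least 2-fold lower in VhlF/F/Apcmin/+ and 8 in VhlΔIE than in VhlF/F mucosa, where Alb read 11.53. Ttr and Tat were the exceptions, and were highest on the VhlF/F/Apcmin/+ array at 11.89 and 8.52. Fads1, Elovl5, Scd1 and Thrsp had their highest values on the VhlF/F array. In all, 7 of the 33 members (21.2%) were highest there, where 25.5% of all genes were. Clock genes also separated the arrays, and several lipid genes are known to follow the time of day in liver. The 11 clock genes had means of 8.82 in VhlΔIE/Apcmin/+ against 9.64 in VhlF/F/Apcmin/+ mucosa, and 8.41 in VhlΔIE against 9.18 in VhlF/F mucosa. Dbp, a clock output, read 8.05 against 10.74 and 5.86 against 9.37 in the same pairs. The list did not go one way, with 1 higher and 10 lower with Apcmin/+, and 2 higher and 9 lower without it. Npas2, a partner in the clock's activator, was higher by 1.58 and 1.51, and Arntl differed by -0.19 and 0.60. Srebf1, Srebf2, Dhcr7, Acly and Fads2 were highest on the VhlF/F/Apcmin/+ array, as were 16 of the 33 members (48.5%) and 29.9% of all genes. The part of hepatocyte RNA and of sampling time was not tested.

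Proliferation genes and smooth muscle genes also differed by Vhl status. All 9 proliferation genes above the floor were higher in both comparisons, with medians of 0.92 with and 0.93 without Apcmin/+, while the sterol enzymes had medians of -0.09 and -0.05. All 5 smooth muscle genes were lower, with medians of -0.47 and -0.62. Their part in the lower lipid genes was not tested. Xist was lower on both Vhl-deleted arrays too, and the part of sex in the differences of Fads2, Scd1 and Me1 was not tested.

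Other genes of the pathways came from a list of 28, of which 22 were found and 18 reached the floor. The rest are not analysed here. None of the 18 was 1.5-fold higher in either Vhl comparison. With Apcmin/+ 4 were at least 1.5-fold lower, 1 of them 2-fold, and without it 3 were, 1 of them 2-fold. Of all genes, 5.15% and 5.08% were 1.5-fold lower and 1.52% and 1.6% were 2-fold lower in these comparisons. The medians were -0.03 and -0.01.

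Mlxipl encodes ChREBP, the sugar-responsive activator of lipogenic genes. It read 7.35 in VhlΔIE/Apcmin/+ against 8.24 in VhlF/F/Apcmin/+ mucosa, and 7.43 in VhlΔIE against 8.44 in VhlF/F mucosa, with differences of -0.89 and -1.01. Acsl3, which joins long fatty acids to coenzyme A, differed by -1.06 and -0.69. Acss2, which makes acetyl-CoA from acetate, read 10.59 in VhlΔIE/Apcmin/+ against 11.42 in VhlF/F/Apcmin/+ mucosa, and 11.02 in VhlΔIE against 11.62 in VhlF/F mucosa. Both deleted arrays lay below both floxed arrays for each of these 3 genes. Among the 18 pathway genes they lay below for 6 and above for 7, where 33.4% and 27.7% of all genes did. Mylip, a ubiquitin ligase that is a target of the liver X receptors, differed by -0.72 and -0.51. Hsd17b12 and Abca1 were on the higher side, by 0.33 and 0.56 and by 0.24 and 0.41. Of the 18, 9 were higher and 9 lower in each Vhl comparison.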

How the data were processed

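Total RNA of scraped colon mucosa was amplified, labelled with biotin and hybridised to an Affymetrix mouse array, 1 array per genotype. Per the submitters' processing notes, the authors used affy and RMA and deposited log2 values, with versions not given in the sources used here. RMA brings arrays to one distribution, which hides any change common to all transcripts, and background compresses the differences of dim genes.

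Probe sets with 1 symbol in GEO's platform annotation (34958 of 45101) were used, and all 33 member symbols were in the RefSeq table. Each gene took its probe set with the highest mean. Genes that reached log2 6 on at least 1 array (11871) gave the background. Differences, counts at 2-fold and 1.5-fold, and medians were computed, with no test. The counting was tested on simulated data. Members and lists were chosen with earlier results of these data known. Values in full were given for members at least 2-fold apart or nearest to 2-fold and for Srebf1, Srebf2 and Insig1. Pathway genes were named if 2-fold apart or among the 3 largest Vhl differences. Hmgcs1, Sqle, Dhcr7, Acly, Fads1, Elovl6, Mylip, Hsd17b12, Abca1 and the marker genes shown were added after their values were seen. Cyclic loess was run in limma 3.58.1 under R 4.3.3, everything else in Python 3.11.15 with pandas 2.3.3 and numpy 2.4.6, and figures were drawn with matplotlib 3.10.9. The number of arrays limits the precision.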

Additional observations from a re-analysis of the deposited data

Results flagged for a closer look

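Thrsp had opposite Vhl differences in the 2 Apc backgrounds, 1.02 for VhlΔIE/Apcmin/+ minus VhlF/F/Apcmin/+ and -0.31 for VhlΔIE minus VhlF/F. The median of the 13 fatty acid genes was also opposite in sign, 0.058 with and -0.31 without Apcmin/+. The first of these was -0.019 with a floor of 7 and also without probe sets that can cross-hybridise, so the opposite sign was lost there. For the Apc mutation, that median was -0.28 for VhlF/F/Apcmin/+ minus VhlF/F and 0.037 for VhlΔIE/Apcmin/+ minus VhlΔIE. These differences between backgrounds were not tested, since each rests on 1 array per genotype.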

How the results depend on the processing

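No paired analysis was possible because each genotype was on 1 array. Medians were compared with a tolerance of 0.1 and counts with one of 1.5 times. No median or count moved past these with no floor, with values under 6 raised to 6, without probe sets that can cross-hybridise, or after cyclic loess. With a floor of 7, the fatty acid median of VhlF/F/Apcmin/+ minus VhlF/F was -0.15. With the mean over probe sets it was -0.14, members at least 2-fold lower in that comparison numbered 0, members at least 2-fold higher in VhlΔIE/Apcmin/+ minus VhlF/F/Apcmin/+ numbered 1, and member differences of 2-fold over the 4 comparisons 2 in place of 5. At 1.5-fold, 10 member differences counted over the 4 comparisons, with 3 lower for VhlΔIE/Apcmin/+ minus VhlF/F/Apcmin/+, and 1 higher and 2 lower for VhlΔIE minus VhlF/F. With the other floxed array in place, chosen after the data were seen, VhlΔIE had 2 members higher, 1 lower and a fatty acid median of 0.024, and VhlΔIE/Apcmin/+ had 0 higher and a median of -0.23. Thrsp then differed by -0.44 for VhlΔIE/Apcmin/+, against 1.02, and no other 2-fold member difference turned its sign under any alternative. The causes were not tested. Near background, where Acacb and Thrsp lay, differences are compressed.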
